A study of Ambystoma mexicanum with 49 samples.

Results

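Single whole axolotl (Ambystoma mexicanum, a salamander) embryos of stage 19 were compared with those of stage 14, the course of neurulation, by the poly(A) RNA they held. The comparison used all 3 libraries of stage 19 and all 3 of stage 14, chosen by the stage in the labels, out of 49 poly(A) libraries of 17 stages. The 3 libraries of stage 16 lie between them and are shown as intermediates with no test. All embryos of the 3 stages were freed of their jelly coats, kept at 20°C, preserved one by one and extracted singly, so each replicate is a separate embryo. The labels name no strain and no experimental treatment, and as whole embryos were used, fewer cells of a type and less RNA per cell cannot be told apart in any value given here.

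During neurulation the flat neural plate on the back of the embryo bends, its edges rise as neural folds, and the folds meet to close the neural tube. Cells at the border of the plate become the neural crest, which later leaves the folds to form pigment cells, peripheral nerves and skeleton of the head. Beneath the plate the notochord and somites take shape, the tube is divided from front to back by transcription factors, and laminae of extracellular matrix form between the tissues.

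The stage 19 libraries held 13.95, 23.82 and 23.45 M estimated counts, the stage 14 libraries 13.75, 21.88 and 12.05 M, and the stage 16 libraries 41.41, 17.93 and 29.82 M. Over 8053 well-measured genes, Pearson's r of log2 levels between embryos, given as a description, was 0.975 to 0.986 among stage 19 embryos, 0.967 to 0.975 among stage 14 embryos and 0.942 to 0.958 between the stages. Genes of neural tissue, muscle precursors and epidermis were present in all 6 embryos. SOX2, a transcription factor of the neural plate, had 167, 123 and 94.2 TPM (the authors' level per library, scaled for gene length) at stage 19 and 126, 121 and 131 TPM at stage 14. MYF5, a determination factor of muscle, had 96.2, 77.0 and 103 TPM at stage 19 and 97.0, 83.7 and 78.6 TPM at stage 14. Both genes overlapped between the stages, and neither was called.

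At stage 19 TNC, a gene of the extracellular matrix, SOX10, of the neural crest, and TNNT1, of muscle, were among the genes that rose. POU5F1, a gene of pluripotent cells, H1FOO, a gene of the oocyte, and ENAH, a regulator of actin, were among those that fell. Only part of each group was called higher, 20 of 81 matrix, 7 of 36 crest and pigment and 9 of 62 skeletal muscle genes, against 6.73% of all genes tested. The edgeR quasi-likelihood test was run on 14437 genes with p-values adjusted by Benjamini-Hochberg, and 2567 (17.8%) were called at an adjusted p under 0.05. Of these, 972 (6.73% of those tested) were higher and 1595 (11.0%) were lower at stage 19. Increases were larger than decreases, with a median log2 change of 0.95 among the genes called higher and -0.64 among those called lower, against -0.03 over all genes tested. At least 2-fold changes were 457 increases and 260 decreases. Of the genes tested, 34.1% had no overlap between the embryos of the stages, which included 900 of those called higher and 1440 of those called lower.

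The balance of directions depended on how libraries were scaled and on which stages were fitted. With TMM scaling 37.9% of the called genes were higher, whereas DESeq2 size factors in the same test gave 1437 higher and 928 lower genes, and library size alone gave 954 and 801. With TMM scaling, fitting only stages 14 and 19 gave 851 higher and 561 lower genes, and fitting stages 14, 16 and 19 gave 1183 and 1067. The other scalings shifted the median log2 change of all genes upward by 0.12 and 0.10. Called in the same direction by both of the other scalings and by the DESeq2 Wald test were 831 of the 972 higher and 743 of the 1595 lower genes, and 0 were called in the opposite direction with the size factors of DESeq2. Of the at least 2-fold changes, 376 increases and 178 decreases were called by all of these. The genes named below as rising or falling kept their call under every scaling unless stated.

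**Figure D1:**
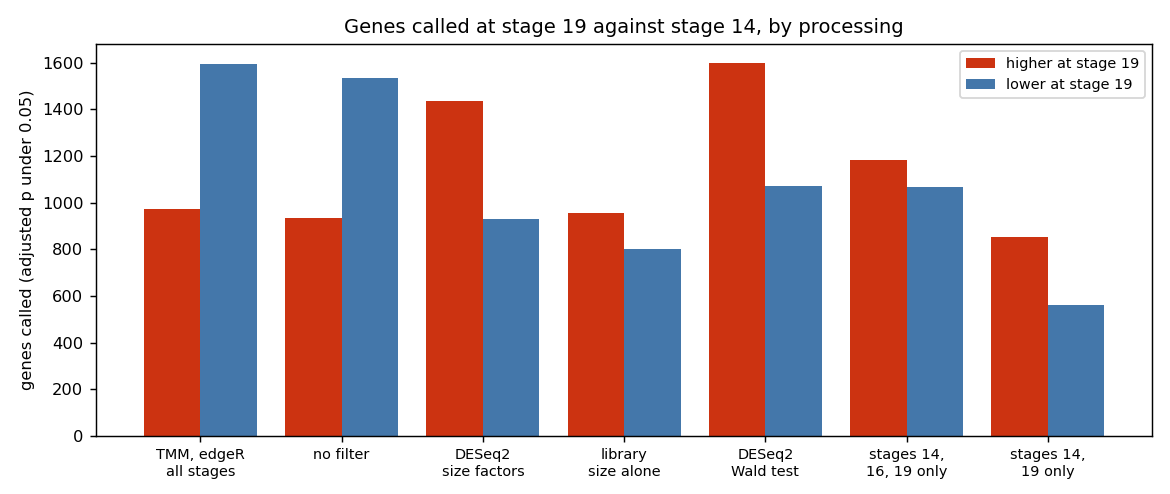
Genes called higher (red) and lower (blue) at stage 19 against stage 14 (vertical axis, number of genes at an adjusted p under 0.05) for each way of scaling, filtering or fitting (horizontal axis). Lower genes outnumber higher ones with TMM scaling over all stages, 1595 against 972, and higher ones outnumber lower ones with library size alone, with DESeq2 size factors, in the DESeq2 Wald test and in both fits of fewer stages.

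The number of genes at 1 TPM or more was 11424, 11431 and 11388 in the stage 19 embryos, against 11073, 11331 and 11058 in the stage 14 embryos. The stages did not overlap, and the means of 11414 ± 23.1 and 11154 ± 153 genes (SD, n = 3 each) differed by 260 genes, with a two-sided exact permutation p = 0.10, the smallest that 3 against 3 allows. Without stage 14 replicate 2 the difference was 349 genes.

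Among called genes with a mean of 10 TPM or more at stage 19 or stage 14 and no overlap, the largest increase was that of TGFBI, a secreted matrix protein. It had 13.0, 15.2 and 10.6 TPM at stage 19, against 2.00, 0.692 and 0.671 TPM at stage 14 (log2 change 3.51 ± 0.61 SE, adjusted p = 9.21e-05). The stage 19 embryos were all far above the stage 14 embryos. BNC1, a zinc finger factor of keratinocytes, had 22.3, 14.3 and 9.90 TPM at stage 19, against 2.71, 1.68 and 0.611 TPM at stage 14 (log2 change 3.14 ± 0.31, adjusted p = 1.22e-08). Further large increases in this set follow. POU3F4, a neural POU factor, had 12.4, 12.6 and 7.88 TPM at stage 19, against 1.56, 2.00 and 1.44 TPM at stage 14. PRRX1, a homeobox factor of mesenchyme, had 6.85, 17.9 and 10.4 TPM at stage 19, against 0.869, 2.46 and 1.72 TPM at stage 14. Their log2 changes were 2.64 ± 0.68 and 2.71 ± 0.51, and neither gene overlapped between the stages. EFEMP2, a fibulin of elastic fibres, rose by a log2 change of 2.65 ± 0.47, SCGN, a calcium-binding protein, by 2.64 ± 0.51, SLC13A1, a sodium-sulfate transporter, by 2.81 ± 0.52 and PCIF1, a methyltransferase of the mRNA cap, by 2.51 ± 0.36. TTC36 and TMEM61 rose by 2.75 ± 0.65 and 2.72 ± 0.53.

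POU3F2, another neural POU factor, had 18.3, 9.01 and 5.03 TPM at stage 19, against 0.246, 2.57 and 0.140 TPM at stage 14 (log2 change 3.24 ± 1.00, adjusted p = 0.0266). Its embryos did not overlap, as for every gene chosen for this set, but varied widely within each stage. The call was lost without stage 14 replicate 1 (adjusted p = 0.0985), stage 14 replicate 3 (0.0947) or stage 19 replicate 1 (0.108), at log2 changes of 2.86, 2.78 and 2.61.

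In the same set of genes, at 10 TPM or more and chosen for no overlap, the largest decrease was that of EGR4, an immediate early zinc finger factor. It had 1.61, 3.24 and 3.24 TPM at stage 19, against 27.0, 27.2 and 35.1 TPM at stage 14 (log2 change -3.51 ± 0.73, adjusted p = 0.00179). Every stage 19 embryo was below every stage 14 embryo, as the choice of the set required. In stage 16 embryos EGR4 was at 10.9, 27.7 and 26.2 TPM, and over the whole series its mean was 0.332 TPM at stage 12 and 0 at stage 24, so its level stood high only around stages 14 and 16 among these 5 stages. FOXB2, a forkhead factor, had 3.14, 3.86 and 2.60 TPM at stage 19, against 15.6, 17.7 and 24.3 TPM at stage 14 (log2 change -2.65 ± 0.64). TUBD1, the delta tubulin of centrioles, had 1.87, 3.95 and 1.43 TPM at stage 19, against 14.3, 10.9 and 12.1 TPM at stage 14 (log2 change -2.39 ± 0.28). RUFY1, a protein of endosomes, BAIAP2L1, a membrane-bending partner of actin, and ALPI, an alkaline phosphatase, fell by 2.08, 1.47 and 1.46 on the log2 scale, again with no overlap by choice.

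Another pair of large decreases lost its call under one setting. LRRC36 had a log2 change of -1.51 ± 0.41 and was not called without stage 19 replicate 3 (adjusted p = 0.0523, at a log2 change of -1.32). CCDC112 had a log2 change of -1.42 ± 0.31 and was not called when only stages 14 and 19 were fitted (adjusted p = 0.0577). The TPM values of CCDC112 overlapped, at 3.46, 6.12 and 6.77 at stage 19 and 6.53, 14.6 and 21.5 at stage 14, while its scaled counts did not.

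**Figure D2:**
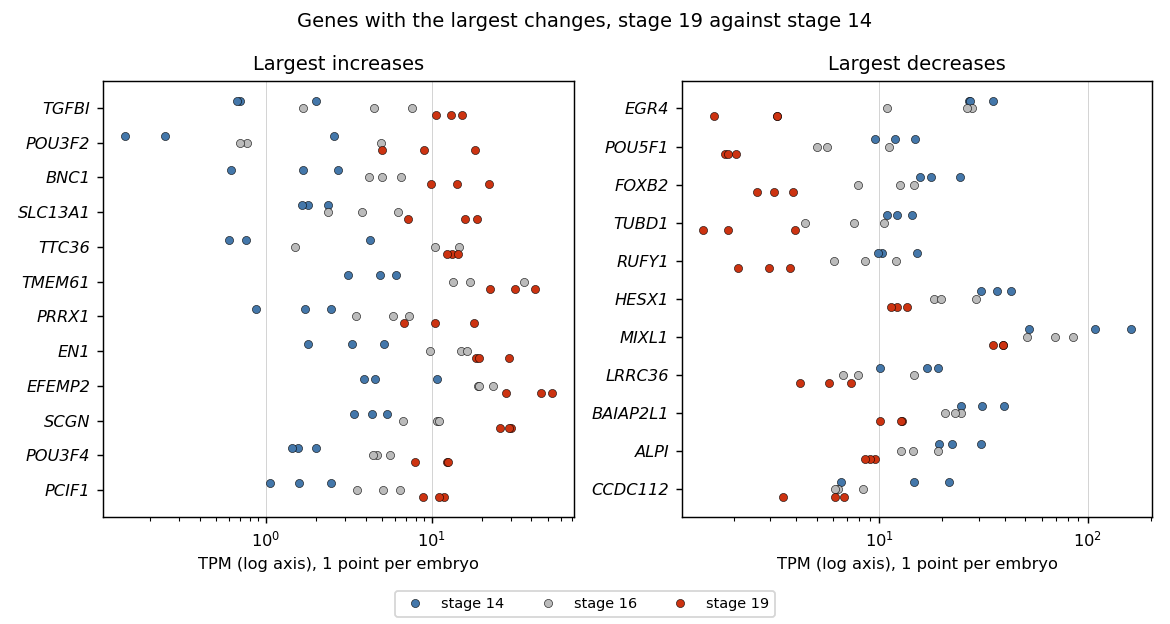
Levels in TPM (horizontal log axis) of 12 of the largest increases (left) and 11 of the largest decreases (right) of stage 19 against stage 14, 1 point per embryo, with stage 14 in blue, stage 16 in grey and stage 19 in red. The scaled counts of stage 19 and stage 14 embryos do not overlap for any gene shown, since the genes were chosen that way, and most stage 16 points lie between.

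Gene lists were set against the background of 6.73% higher and 11.0% lower over all genes tested. Of 81 genes of the extracellular matrix and basement membrane 20 rose and 1 fell, and of 36 genes of neural crest and pigment cells 7 rose and 3 fell. Of 59 genes of the BMP, Nodal and TGF-beta pathways 10 rose and 5 fell. Of 62 genes of skeletal muscle 9 rose and 2 fell. Shares of lower genes were above the background for oocyte and germ plasm, with 7 of 34, for pluripotency and the early gastrula, with 5 of 23 (2 of the 23 rose), for planar cell polarity and cell shape, with 12 of 71, and for the cell cycle, with 11 of 70. The cytosolic ribosomal proteins gave 0 calls among 72 genes by the edgeR test, with 1 at an unadjusted p under 0.05 and 1 by the DESeq2 Wald test. Their summed level was nevertheless higher in every stage 19 embryo, at 67785 to 80063 TPM, against 62185 to 63041 TPM at stage 14. The median log2 change of the list was 0.17, and 0.30 with DESeq2 size factors, against -0.03 over all genes tested with TMM scaling. These counts are descriptions of the lists, with no test of a list as a whole. The background itself moved with the setting. Over all genes tested, DESeq2 size factors called 1437 higher and 928 lower, and library size alone 954 and 801. With 1 library left out, 701 to 799 were higher and 1188 to 1332 lower. List counts under these settings are to be read against those numbers.

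**Figure D3:**
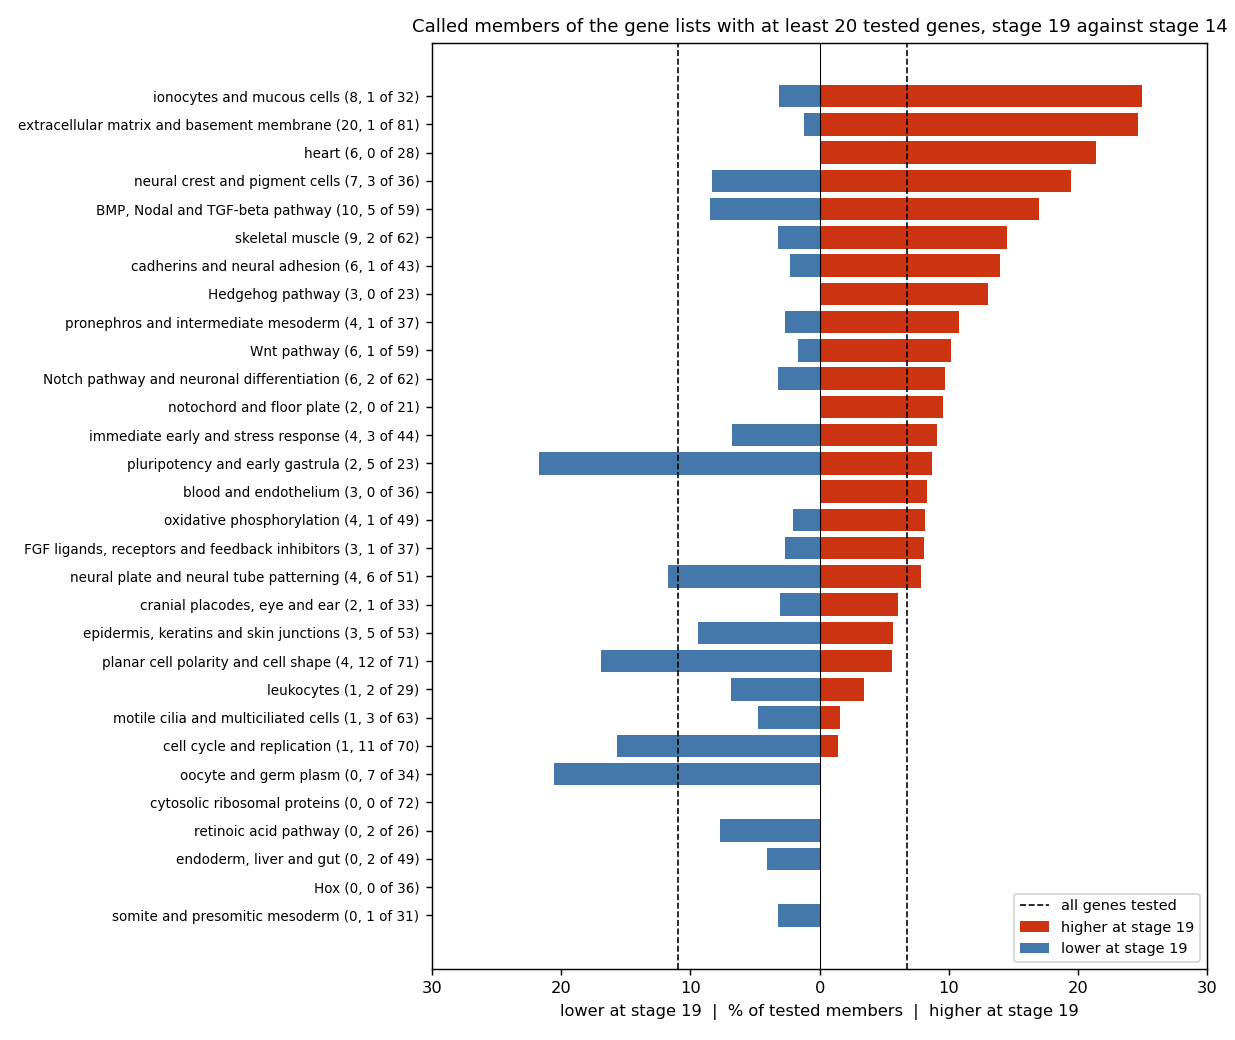
Percentage of the tested members of each of 30 gene lists that were called higher (red, to the right) or lower (blue, to the left) at stage 19 against stage 14, with the numbers higher, lower and tested beside each name. The list of hatching and cement or adhesive organs, with 2 higher and 1 lower of 6 tested genes, is left out, as lists under 20 tested genes are not drawn. Dashed lines mark the shares over all genes tested, 6.73% higher and 11.0% lower. Of the lists drawn, ionocytes, extracellular matrix, heart and neural crest extend farthest to the right, and pluripotency and oocyte genes farthest to the left.

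The whole-embryo level of SOX2, a gene of the neural plate, overlapped between stages 14 and 19. In stage 16 embryos, shown with no test, SOX2 was at 158, 156 and 163 TPM, above every stage 14 embryo. Genes of the plate's front to back divisions were called in both directions, about as often as all genes tested. Of 51 genes of neural plate and neural tube patterning, 4 rose and 6 fell, shares close to the background. With DESeq2 size factors these were 6 and 3, and over all genes tested 1437 and 928. FABP7, a fatty acid binding protein of radial glia, had 45.1, 55.6 and 63.5 TPM at stage 19, against 36.2, 20.4 and 20.9 TPM at stage 14 (log2 change 1.02 ± 0.24, adjusted p = 0.00288). PAX2, a factor of the midbrain-hindbrain boundary that also marks the pronephros and the ear, had 3.58, 3.49 and 4.63 TPM at stage 19, against 8.22, 8.78 and 7.29 TPM at stage 14 (log2 change -1.10 ± 0.27, adjusted p = 0.00343). Neither gene overlapped between the stages. Without single libraries the number rising was 4 (stage 14 replicate 1), 3 (stage 19 replicate 3), 2 (stage 14 replicate 2, stage 19 replicate 1 or 2) or 1 (stage 14 replicate 3). The number falling was 4 (stage 14 replicate 1 or 2), 3 (stage 14 replicate 3 or stage 19 replicate 1), 2 (stage 19 replicate 3) or 1 (stage 19 replicate 2).

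EN1 and EN2, homeobox factors of the midbrain-hindbrain boundary, were higher at stage 19, and HESX1 and SIX3, factors of the forebrain, were lower. Their calls were lost when certain single embryos were left out, although the log2 changes kept their direction. EN1 had 29.3, 18.5 and 19.4 TPM at stage 19, against 5.14, 3.29 and 1.78 TPM at stage 14, with no overlap (log2 change 2.65 ± 0.83, adjusted p = 0.0232). Its adjusted p was 0.0764 without stage 14 replicate 2, 0.0975 without stage 14 replicate 3 and 0.0705 without stage 19 replicate 1, at log2 changes of 2.58, 2.38 and 2.40. EN2 had 23.9, 19.1 and 16.4 TPM at stage 19, against 9.48, 6.33 and 7.90 TPM at stage 14 (log2 change 1.26 ± 0.45, adjusted p = 0.0477). Its call was lost without any 1 of the 6 embryos (adjusted p from 0.0639 to 0.166, log2 changes from 1.09 to 1.44) and with library size alone (0.0658). For both genes every stage 19 embryo was above every stage 14 embryo. EN1 was among the genes chosen for no overlap, and 900 of the 972 genes called higher had none.

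HESX1, a repressor of the anterior neural plate and pituitary, had 12.2, 11.4 and 13.6 TPM at stage 19, against 36.8, 42.8 and 30.8 TPM at stage 14 (log2 change -1.62 ± 0.49, adjusted p = 0.0166). It was not called without stage 19 replicate 1 (adjusted p = 0.0511, log2 change -1.63) or stage 19 replicate 2 (0.0652, log2 change -1.54). SIX3, a factor of the forebrain and eye field, had 12.9, 9.13 and 11.5 TPM at stage 19, against 30.0, 24.9 and 19.0 TPM at stage 14 (log2 change -1.20 ± 0.42, adjusted p = 0.0466). Its call was lost without any 1 of the 6 embryos (adjusted p from 0.0556 to 0.164), with the size factors of DESeq2 (0.0762) and with library size alone (0.105). OTX2, a factor of forebrain and midbrain, had 11.4, 13.0 and 11.5 TPM at stage 19, against 17.6, 25.5 and 26.0 TPM at stage 14. It missed the threshold at 0.499 of its stage 14 level (SE 0.37 on the log2 scale, adjusted p = 0.0527), although it was called without stage 14 replicate 1 (0.0496, log2 change -1.15) and when only stages 14 and 19 were fitted (0.0111). None of these 3 genes overlapped between the stages.

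**Figure D4:**
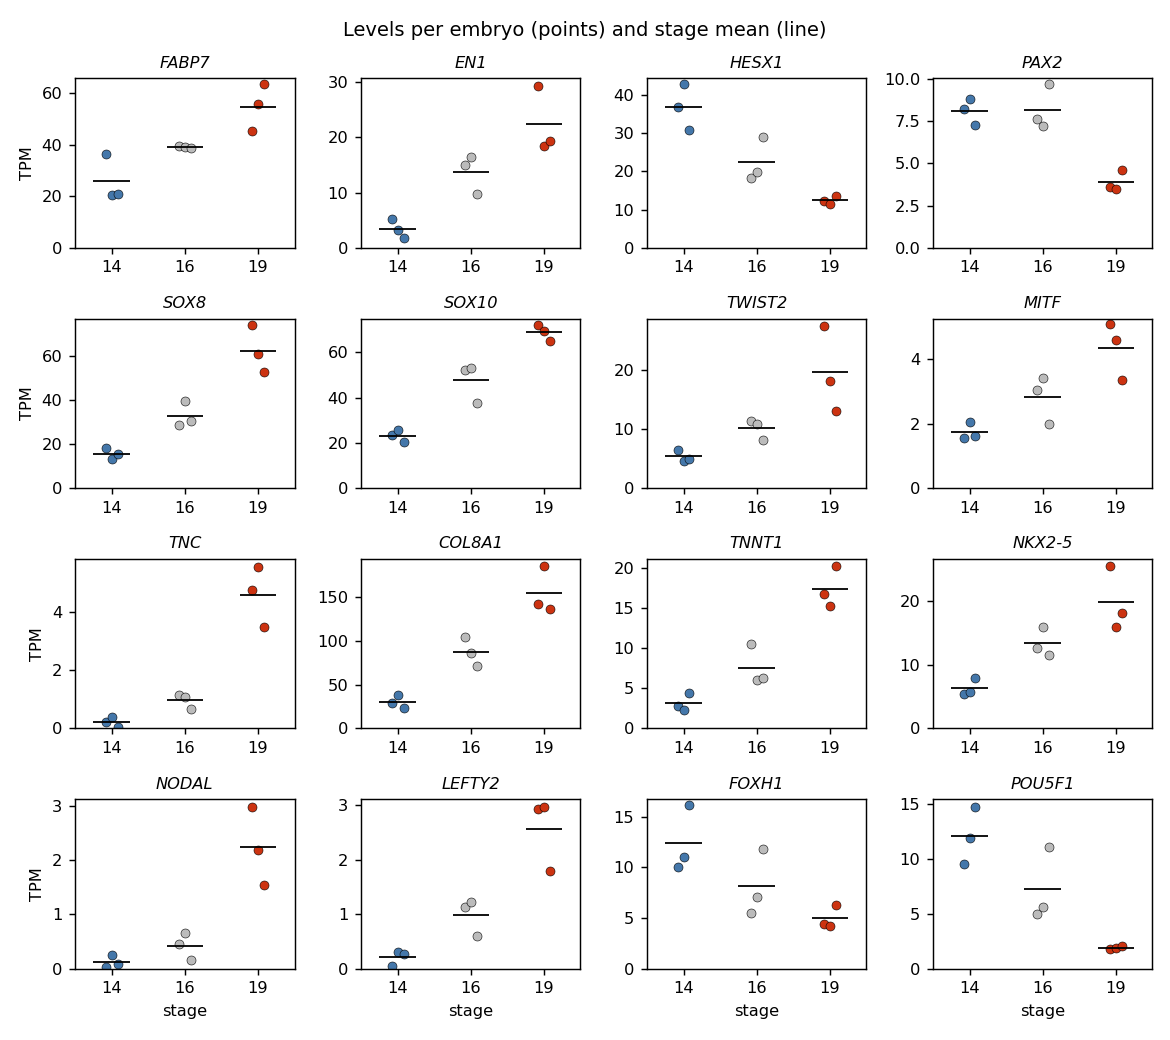
Levels in TPM (vertical axes, from 0) of 16 genes at stages 14, 16 and 19 (horizontal axes), with 1 point per embryo and a line at the mean of each stage. FABP7, EN1, the crest genes SOX8, SOX10, TWIST2 and MITF, and TNC, COL8A1, TNNT1, NKX2-5, NODAL and LEFTY2 are higher at stage 19 than at stage 14 in every embryo, and HESX1, PAX2, FOXH1 and POU5F1 are lower.

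Among genes of neuronal differentiation STMN2, DCX, EBF2 and MYT1 were higher at stage 19, whereas ELAVL3, TUBB3 and NEUROD1 overlapped between the stages and were not called. STMN2, a tubulin regulator of growing axons, had 13.0, 15.2 and 11.5 TPM at stage 19, against 5.07, 3.57 and 2.34 TPM at stage 14 (log2 change 1.79 ± 0.50, adjusted p = 0.0120). DCX, a microtubule protein of migrating neurons, had 1.83, 4.22 and 2.32 TPM at stage 19, against 0.360, 1.04 and 0.415 TPM at stage 14 (log2 change 2.08 ± 0.60, adjusted p = 0.0155). The embryos of the stages did not overlap for either gene. STMN2 was not called without stage 14 replicate 2 (adjusted p = 0.0512, log2 change 1.71) or replicate 3 (0.0571, log2 change 1.60), and DCX not without stage 14 replicate 1 (0.0681, log2 change 1.84), stage 14 replicate 3 (0.0618, log2 change 1.91) or stage 19 replicate 2 (0.0863, log2 change 1.69). The proneural factor NEUROG2, which starts neuronal differentiation, overlapped between the stages, at 26.2, 20.3 and 26.2 TPM at stage 19 and 16.5, 26.0 and 19.8 TPM at stage 14 (log2 change 0.17 ± 0.33, adjusted p = 0.789). NEUROD4, which acts after it, had 5.10, 9.38 and 7.94 TPM at stage 19, against 3.36, 3.27 and 3.90 TPM at stage 14, and was not called (log2 change 1.03 ± 0.45, adjusted p = 0.118). By the DESeq2 Wald test NEUROD4 was called (adjusted p = 0.0359).

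ELAVL3, an RNA-binding protein of neurons, had 3.98, 10.4 and 8.56 TPM at stage 19 and 5.34, 11.4 and 2.05 TPM at stage 14 (log2 change 0.24 ± 0.32, adjusted p = 0.659), and without stage 14 replicate 2 it was called (adjusted p = 0.0473, log2 change 0.94). TUBB3, the neuronal beta tubulin, had 10.0, 10.1 and 3.84 TPM at stage 19 and 1.89, 4.49 and 7.44 TPM at stage 14 (log2 change 0.73 ± 0.40, adjusted p = 0.218). NEUROD1, a bHLH factor of neurons, was below 1 TPM in all 6 embryos (log2 change -0.92 ± 1.09, adjusted p = 0.622). SNAP25, a protein of synaptic vesicle release, was called lower at 0.426, 0.144 and 0.577 TPM at stage 19, against 0.567, 1.61 and 0.581 TPM at stage 14 (log2 change -1.40 ± 0.47, adjusted p = 0.0340). Its call was lost with DESeq2 size factors (adjusted p = 0.0519), with library size alone (0.0747), with only stages 14 and 19 fitted (0.188), with stages 14, 16 and 19 fitted (0.133) and without stage 14 replicate 2 (0.449, log2 change -0.70), stage 19 replicate 1 (0.0574, log2 change -1.47) or stage 19 replicate 2 (0.213, log2 change -0.93).

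Of the 62 genes of the Notch pathway and neuronal differentiation 6 rose and 2 fell, the first share somewhat above the background of 6.73%. DESeq2 size factors gave 8 and 0, and over all genes tested 1437 and 928. At an unadjusted p under 0.05 the edgeR test gave 13 and 2, and the DESeq2 Wald test called 11 and 1. The number rising was 3 without stage 14 replicate 1, stage 14 replicate 2 or stage 19 replicate 2, and 2 without stage 14 replicate 3. The number falling was 0 or 1 without any 1 embryo of these stages other than stage 14 replicate 1. EBF2 and MYT1 were among those that rose, with no overlap. EBF2 had 4.04, 6.81 and 4.69 TPM at stage 19, against 2.16, 2.04 and 2.25 TPM at stage 14 (log2 change 1.21 ± 0.40, adjusted p = 0.0302). MYT1 rose by a log2 change of 0.83 ± 0.28 (adjusted p = 0.0339). EBF2 was not called without any 1 of the stage 14 embryos or stage 19 replicate 2 or 3. MYT1 was not called without replicate 1 or 2 of either stage.

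Of the genes of neural crest and pigment cells, SOX8, SOX10, TWIST2, MITF and SEMA3F were among the 7 that rose, and TFAP2C, DCT and GCH1 were the 3 that fell. SOX10, which marks crest cells as they form and migrate, had 72.3, 69.6 and 65.2 TPM at stage 19, against 23.5, 25.6 and 20.3 TPM at stage 14 (log2 change 1.52 ± 0.42, adjusted p = 0.0120). SOX8, its close relative, had 74.1, 61.0 and 52.7 TPM at stage 19, against 18.4, 13.1 and 15.5 TPM at stage 14 (log2 change 1.94 ± 0.42, adjusted p = 0.00126). For both genes the lowest stage 19 embryo was far above the highest stage 14 embryo. TWIST2, a bHLH factor of mesenchyme, had 27.5, 18.2 and 13.0 TPM at stage 19, against 6.53, 4.66 and 5.00 TPM at stage 14 (log2 change 1.80 ± 0.37). MITF, the master regulator of melanocytes, had 5.08, 4.61 and 3.34 TPM at stage 19, against 1.57, 2.04 and 1.61 TPM at stage 14 (log2 change 1.26 ± 0.23, adjusted p = 0.000166). SEMA3F, a guidance cue for crest cells and axons, rose by a log2 change of 0.71 ± 0.15. None of these overlapped, and all 5 calls held under every alternative tried.

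TFAP2C, a factor of plate border and epidermis, had 23.3, 24.0 and 22.4 TPM at stage 19, against 34.0, 40.0 and 34.3 TPM at stage 14 (log2 change -0.69 ± 0.23, adjusted p = 0.0360). Its call was lost with DESeq2 size factors (adjusted p = 0.0831), by the DESeq2 Wald test (0.0652) and without any 1 of the 6 embryos (0.0635 to 0.0917). DCT, an enzyme of melanin synthesis, had 10.3, 9.20 and 8.49 TPM at stage 19, against 13.5, 13.4 and 12.9 TPM at stage 14 (log2 change -0.57 ± 0.16, adjusted p = 0.00882), a call lost with library size alone (0.0544) and with only stages 14 and 19 fitted (0.0659). GCH1, an enzyme of pteridine synthesis, had 0.173, 0.298 and 0.364 TPM at stage 19, against 0.529, 0.962 and 0.743 TPM at stage 14 (log2 change -1.43 ± 0.34, adjusted p = 0.00277), and it was not called with only stages 14 and 19 fitted (0.0670).

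SNAI2, FOXD3 and TFAP2A, early factors of crest and plate border, were not called. SNAI2, a repressor that drives cells out of an epithelium, had 78.2, 59.6 and 63.0 TPM at stage 19 and 69.4, 46.3 and 43.9 TPM at stage 14 (log2 change 0.27 ± 0.36, adjusted p = 0.660). FOXD3, an early crest factor, had 19.1, 14.5 and 16.9 TPM at stage 19 and 25.5, 24.1 and 18.1 TPM at stage 14 (log2 change -0.48 ± 0.33, adjusted p = 0.344). TFAP2A, a relative of TFAP2C, had a log2 change of -0.39 ± 0.34 (adjusted p = 0.480). These 3 genes overlapped between stages 14 and 19. In stage 16 embryos SNAI2 was at 64.3, 83.0 and 85.0 TPM and FOXD3 at 26.1, 32.4 and 31.2 TPM, with no test. TFAP2A was at 19.0, 26.3 and 27.3 TPM there. FOXD3 was thus higher in each stage 16 embryo than in any embryo of stages 14 and 19. Leaving out single embryos changed the list's count of 7 rising and 3 falling genes to 5 to 6 rising and 2 falling. Over the whole series the mean of SOX10 was 0.150 TPM at stage 12, 23.1 at stage 14, 47.7 at stage 16, 69.0 at stage 19 and 40.1 at stage 24.

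Genes of planar cell polarity and of the actin machinery that bends the neural plate fell more often than they rose with TMM scaling, 12 against 4 of 71, while DESeq2 size factors gave 9 falling and 8 rising and library size alone 9 and 5. Over all 14437 genes tested, TMM scaling gave 1595 lower and 972 higher. DESeq2 size factors gave 928 and 1437 of all genes, and library size alone 801 and 954. Of the 71, the number rising was 2 without stage 19 replicate 1, and the number falling was 8 to 13 over the embryos left out. ENAH and EVL, relatives that help actin filaments grow, fell under every alternative. ENAH had 25.0, 28.3 and 24.6 TPM at stage 19, against 41.3, 43.8 and 36.8 TPM at stage 14 (log2 change -0.70 ± 0.11, adjusted p = 1.97e-05), and EVL had 3.29, 3.61 and 2.45 TPM against 5.68, 6.67 and 5.68 TPM (log2 change -1.01 ± 0.19, adjusted p = 0.000234). The Frizzled receptors, through which polarity and Wnt signals enter the cell, split. FZD6 had 26.2, 21.9 and 20.2 TPM at stage 19, against 11.9, 13.0 and 7.18 TPM at stage 14 (log2 change 1.03 ± 0.20), and FZD7 had 53.9, 40.2 and 43.4 TPM at stage 19, against 79.5, 73.3 and 75.2 TPM at stage 14 (log2 change -0.79 ± 0.18). Neither pair of groups overlapped.

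The core polarity gene VANGL2 had 8.09, 9.13 and 6.63 TPM at stage 19 and 6.30, 7.23 and 6.12 TPM at stage 14, and it was not called (log2 change 0.22 ± 0.15, adjusted p = 0.338). SHROOM3, which constricts the tops of neural plate cells, was not called either, with a log2 change of 0.36 ± 0.24 (adjusted p = 0.329). GRHL3, a factor of surface ectoderm needed for neural tube closure in mice, had 170, 187 and 203 TPM at stage 19, against 289, 251 and 375 TPM at stage 14, with no overlap. It was not called in the fit of all stages (log2 change -0.78 ± 0.51, adjusted p = 0.316) and was called when only stages 14 and 19 were fitted (adjusted p = 0.0295). CDH2, the cadherin of the neural tube, likewise had 68.1, 85.2 and 70.3 TPM at stage 19, against 40.1, 59.3 and 40.3 TPM at stage 14. Its adjusted p was 0.280 over all stages (log2 change 0.63 ± 0.38) and 0.0245 with stages 14 and 19 alone. CDH1, the cadherin of epidermis, had a log2 change of -0.30 ± 0.14 (adjusted p = 0.148). L1CAM, an adhesion molecule of axons, had 3.81, 8.21 and 7.16 TPM at stage 19, against 0.347, 1.93 and 0.934 TPM at stage 14 (log2 change 2.47 ± 0.67, adjusted p = 0.00830), a call lost without stage 14 replicate 1 (adjusted p = 0.0510, log2 change 2.09).

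Among secreted signals NODAL, a TGF-beta family ligand that patterns the gastrula and later marks the left side, and its antagonist LEFTY2 rose. NODAL had 2.97, 2.18 and 1.55 TPM at stage 19, against 0.0258, 0.247 and 0.0892 TPM at stage 14 (log2 change 3.98 ± 0.69, adjusted p = 9.64e-05). LEFTY2, the antagonist that NODAL signalling induces, had 2.93, 2.96 and 1.80 TPM at stage 19, against 0.0595, 0.305 and 0.274 TPM at stage 14 (log2 change 3.48 ± 0.70, adjusted p = 0.000722). Levels were low at both stages, every stage 19 embryo was above every stage 14 embryo, and both calls held under every alternative. NODAL and LEFTY2 were also the 2 rising members of the list of pluripotency and the early gastrula. From stage 11 to stage 24 the mean of NODAL was lowest at stage 14. It was 31.3 TPM at stage 11, 5.21 at stage 12, 0.121 at stage 14, 0.419 at stage 16, 2.24 at stage 19 and 1.46 at stage 24. Some stages outside this range had lower means, such as 0.0803 TPM at stage 2 and 0.0774 TPM at stage 40. FOXH1, the cofactor through which SMAD proteins read Nodal signals, went the other way, with 4.38, 4.24 and 6.27 TPM at stage 19, against 10.0, 11.0 and 16.1 TPM at stage 14 (log2 change -1.37 ± 0.29, adjusted p = 0.000942).

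SMAD5, which carries BMP signals, had 10.6, 15.3 and 12.8 TPM at stage 19, against 7.02, 7.33 and 8.03 TPM at stage 14 (log2 change 0.74 ± 0.14, adjusted p = 0.000251). SMAD3, which carries Nodal and TGF-beta signals, had 3.86, 3.51 and 2.57 TPM at stage 19, against 4.05, 7.01 and 4.87 TPM at stage 14 (log2 change -0.74 ± 0.14, adjusted p = 0.000251). The embryos of the stages did not overlap for either gene, and SMAD3 was not called when only stages 14 and 19 were fitted (adjusted p = 0.0742). NBL1, a secreted BMP antagonist of the DAN family, had 2.15, 0.793 and 0.961 TPM at stage 19 and 1.95, 6.31 and 4.99 TPM at stage 14 (log2 change -1.92 ± 0.37, adjusted p = 0.000296). Its embryos overlapped, and it was not called with only stages 14 and 19 fitted (adjusted p = 0.0585). For the whole list of 59 genes, DESeq2 size factors lowered the number falling to 3, as did leaving out stage 19 replicate 2 or 3, and leaving out stage 14 replicate 2 gave 2.

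Wnt co-receptor LRP6 had 6.74, 6.69 and 5.96 TPM at stage 19, against 3.62, 4.08 and 3.87 TPM at stage 14 (log2 change 0.69 ± 0.16, adjusted p = 0.00198). WIF1, a secreted Wnt inhibitor, had 16.7, 19.8 and 16.4 TPM at stage 19, against 4.02, 6.78 and 2.16 TPM at stage 14 (log2 change 1.94 ± 0.55, adjusted p = 0.0110), a call lost without stage 14 replicate 3 (adjusted p = 0.0657, log2 change 1.66). Both were higher in every stage 19 embryo. Of 59 Wnt pathway genes 6 rose and 1 fell, against a background of 6.73% higher and 11.0% lower. The number rising was 3 without stage 14 replicate 3. In the FGF pathway FGFBP1, a carrier that releases FGF ligands from matrix, had 14.5, 3.93 and 7.37 TPM at stage 19, against 0.859, 0.824 and 0 TPM at stage 14 (log2 change 3.72 ± 0.82), and FGF1, a ligand, had 3.54, 4.31 and 4.41 TPM at stage 19, against 5.23, 8.22 and 6.44 TPM at stage 14 (log2 change -0.75 ± 0.18). FGFBP1 thus spread widely at stage 19 but stayed above stage 14 in every embryo.

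In the Hedgehog pathway, 3 of 23 genes rose and 0 fell, against a background of 6.73% higher and 11.0% lower. GAS1, a surface co-receptor of the Hedgehog ligands, had 33.5, 36.4 and 35.2 TPM at stage 19, against 22.6, 22.8 and 23.3 TPM at stage 14 (log2 change 0.55 ± 0.13, adjusted p = 0.00358). KIF7, a kinesin of the cilium that controls GLI factors, had 7.26, 8.64 and 6.93 TPM at stage 19, against 4.68, 3.59 and 4.42 TPM at stage 14 (log2 change 0.78 ± 0.15, adjusted p = 0.000409). The groups were tight and separate for both. SHH, the ligand of notochord and floor plate, had 34.3, 47.8 and 26.6 TPM at stage 19, against 17.2, 18.6 and 20.0 TPM at stage 14. Its embryos did not overlap, but it was not called over all stages (log2 change 0.89 ± 0.71, adjusted p = 0.424), and it was with stages 14 and 19 alone (adjusted p = 0.0279).

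Extracellular matrix genes formed the longest list of increases, 20 of 81 against the background of 6.73%, with a median log2 change of 0.65 over the list and -0.03 over all genes. Without stage 14 replicate 3 the number rising was 10, and DESeq2 size factors gave 24. The number falling was 2 without stage 14 replicate 1 or stage 19 replicate 3 and 0 without stage 14 replicate 2, with 3 genes lower at an unadjusted p under 0.05 with all embryos. TNC, tenascin C, a matrix glycoprotein along crest migration routes in other vertebrates, had 4.75, 5.52 and 3.47 TPM at stage 19, against 0.229, 0.406 and 0.0348 TPM at stage 14 (log2 change 4.11 ± 0.41, adjusted p = 2.08e-08). COL8A1, a short-chain collagen, had 142, 185 and 136 TPM at stage 19, against 28.9, 38.0 and 22.9 TPM at stage 14 (log2 change 2.31 ± 0.30, adjusted p = 4.22e-06). On the TPM scale COL8A1 was thus the more abundant of the pair in all 6 embryos, and both were far apart between the stages. The mean of COL8A1 was 0.770 TPM at stage 12, 30.0 at stage 14, 87.2 at stage 16, 154 at stage 19 and 493 at stage 24.

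DAG1, dystroglycan, the receptor that anchors cells to basement membrane, had 67.4, 35.9 and 55.6 TPM at stage 19, against 26.5, 31.0 and 29.6 TPM at stage 14 (log2 change 0.82 ± 0.18, adjusted p = 0.00178). COL2A1, the collagen of the notochord sheath and later cartilage, had 20.7, 20.5 and 11.6 TPM at stage 19, against 2.23, 8.74 and 3.23 TPM at stage 14 (log2 change 1.80 ± 0.49, adjusted p = 0.00888). Neither gene overlapped between the stages. COL2A1 was not called by the DESeq2 Wald test (adjusted p = 0.0615) or without stage 14 replicate 1 (0.0601, log2 change 1.49). The one matrix gene that fell was HSPG2, perlecan, a heparan sulfate proteoglycan of basement membranes, with 6.33, 6.04 and 5.54 TPM at stage 19, against 6.70, 11.5 and 7.04 TPM at stage 14 (log2 change -0.55 ± 0.13, adjusted p = 0.00391). Its value rested on stage 14 replicate 2, without which it was not called (adjusted p = 0.110, log2 change -0.31). Nor was it called with only stages 14 and 19 fitted (0.103) or with stages 14, 16 and 19 fitted (0.0520).

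Of 62 skeletal muscle genes 9 rose and 2 fell, against a background of 6.73% higher and 11.0% lower. TNNT1, MEF2C and DES were among those that rose, MYH3 was one of those that fell, and ACTC1 and the determination factors MYF5 and MYOD1 overlapped between the stages. TNNT1, a troponin of slow muscle, had 16.7, 15.3 and 20.2 TPM at stage 19, against 2.81, 2.31 and 4.39 TPM at stage 14 (log2 change 2.41 ± 0.59, adjusted p = 0.00547). MEF2C, a transcription factor of muscle and heart, had 8.25, 9.86 and 9.61 TPM at stage 19, against 4.24, 2.72 and 1.96 TPM at stage 14 (log2 change 1.57 ± 0.32), and DES, the muscle intermediate filament desmin, had 5.25, 5.39 and 4.51 TPM at stage 19, against 2.11, 2.30 and 1.78 TPM at stage 14 (log2 change 1.21 ± 0.33). None of the 3 overlapped. ACTC1, the cardiac alpha actin, had 46.1, 86.6 and 80.2 TPM at stage 19 and 50.1, 63.5 and 75.3 TPM at stage 14 (log2 change 0.11 ± 0.24, adjusted p = 0.803). MYOD1 had 13.4, 12.5 and 11.0 TPM at stage 19 and 12.0, 8.26 and 7.76 TPM at stage 14 (log2 change 0.33 ± 0.60, adjusted p = 0.761). The embryonic myosin MYH3 went the other way at low levels, with 1.07, 1.33 and 1.27 TPM at stage 19, against 2.30, 2.45 and 1.65 TPM at stage 14 (log2 change -0.85 ± 0.24, adjusted p = 0.0121). Reads of near-identical genes of a family, myosins among them, may be shared, which was not tested. The call of MYH3 was lost with library size alone (adjusted p = 0.0502) and without stage 19 replicate 1 (0.0510, log2 change -0.79). Of the 62 muscle genes, 5 rose without stage 14 replicate 2 and 1 fell without stage 14 replicate 2 or any 1 of the stage 19 embryos.

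Of 28 heart genes 6 rose, above the background of 6.73%, and 3 rose without stage 14 replicate 2, stage 14 replicate 3, stage 19 replicate 1 or stage 19 replicate 3. RBM20, a splicing factor of heart and muscle, had 12.6, 11.6 and 12.4 TPM at stage 19, against 1.98, 5.47 and 1.58 TPM at stage 14 (log2 change 1.96 ± 0.48, adjusted p = 0.00350). NKX2-5, an early factor of the heart field, had 25.5, 15.9 and 18.1 TPM at stage 19, against 5.32, 5.75 and 7.82 TPM at stage 14 (log2 change 1.60 ± 0.53, adjusted p = 0.0299). Both were separate between the stages. NKX2-5 was not called without stage 14 replicate 1 (adjusted p = 0.0957, log2 change 1.51), stage 14 replicate 2 (0.0980, log2 change 1.50), stage 19 replicate 1 (0.119, log2 change 1.36) or stage 19 replicate 3 (0.0538, log2 change 1.66).

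CDX1, a homeobox factor of the posterior body, was the only called gene of 31 somite and presomitic genes, with 47.3, 45.1 and 52.9 TPM at stage 19, against 107, 128 and 90.1 TPM at stage 14 (log2 change -1.21 ± 0.27, adjusted p = 0.00160). Over all genes tested 17.8% were called in either direction. Without stage 14 replicate 2 the somite and presomitic list had 2 falling genes. MEOX1, a somite homeobox factor, had 120, 141 and 135 TPM at stage 19, against 67.3, 64.6 and 51.1 TPM at stage 14. It missed the threshold with TMM scaling (log2 change 1.05 ± 0.41, adjusted p = 0.0735) and passed it with DESeq2 size factors (adjusted p = 0.0428). The Hox genes, which set positions along the body axis, gave 0 calls among 36 by the edgeR test, with 2 higher and 1 lower at an unadjusted p under 0.05 and 1 higher by the DESeq2 Wald test. Their median log2 change was 0.38, and 0.50 with DESeq2 size factors, against -0.03 over all genes tested with TMM scaling. HOXA9 and HOXB4 overlapped between the stages and were not called (log2 changes 0.08 ± 0.34 and -0.09 ± 0.67, adjusted p = 0.921 and 0.963). HOXD1 had 118, 63.4 and 76.2 TPM at stage 19, against 245, 237 and 139 TPM at stage 14, with no overlap (log2 change -1.32 ± 0.53, adjusted p = 0.0778), and it was called with stages 14 and 19 alone (adjusted p = 0.0234).

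Of 53 genes of epidermis, keratins and skin junctions 3 rose and 5 fell, against 6.73% higher and 11.0% lower over all genes tested. DESeq2 size factors gave 3 and 3, and with 1 embryo left out 0 to 3 rose and 3 to 5 fell. From this list CLDN7, a tight junction claudin, was among the most abundant of all genes named, with 1566, 1305 and 1394 TPM at stage 19, against 2352, 2170 and 2623 TPM at stage 14 (log2 change -0.81 ± 0.19, adjusted p = 0.00250). PKP2, a desmosome plaque protein, had 5.73, 6.92 and 5.25 TPM at stage 19, against 8.64, 10.5 and 8.01 TPM at stage 14 (log2 change -0.66 ± 0.16, adjusted p = 0.00394). Each was lower in every stage 19 embryo. TP63, the factor that defines epidermal stem cells, had 20.2, 15.5 and 15.6 TPM at stage 19, against 11.0, 13.2 and 8.99 TPM at stage 14 (log2 change 0.57 ± 0.18, adjusted p = 0.0196), and it was not called without stage 14 replicate 3 (adjusted p = 0.112, log2 change 0.47) or stage 19 replicate 1 (0.143, log2 change 0.42). The keratin KRT18 overlapped between the stages and was not called (log2 change -0.22 ± 0.30, adjusted p = 0.668). Of 63 genes of motile cilia and multiciliated cells 1 rose and 3 fell, against the same background, and DESeq2 size factors gave 1 and 0. With 1 embryo left out 0 to 1 rose and 0 to 4 fell. FOXJ1, the regulator of motile cilia, had 8.28, 7.75 and 7.39 TPM at stage 19, against 11.7, 12.0 and 13.6 TPM at stage 14, and DNAI1, a dynein of the ciliary arm, had 34.9, 28.4 and 31.1 TPM at stage 19, against 41.3, 58.8 and 48.9 TPM at stage 14. Neither was called over all stages (adjusted p = 0.109 and 0.134), and with stages 14 and 19 alone both were (0.0267 and 0.0333). The cilia gene that rose was DNAH7, another dynein, with no overlap (log2 change 0.47 ± 0.12, adjusted p = 0.00643). Its call was lost with only stages 14 and 19 fitted and without stage 14 replicate 1. Ionocyte and mucous cell genes gave 8 rising and 1 falling of 32, against a background of 6.73% higher and 11.0% lower. The number rising was 2 without stage 14 replicate 1, 4 without stage 14 replicate 3 and 1 without stage 19 replicate 1.

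Among the genes of pluripotency and the early gastrula, POU5F1, a pluripotency factor, had 1.81, 1.88 and 2.05 TPM at stage 19, against 9.53, 11.9 and 14.8 TPM at stage 14 (log2 change -2.71 ± 0.40, adjusted p = 1.00e-05). Over the series its mean was 17.3 TPM at stage 1 and highest at stage 11, at 303 TPM. After that it declined, with means of 273 TPM at stage 12, 12.1 at stage 14, 7.23 at stage 16, 1.91 at stage 19 and 0.423 at stage 24. MIXL1, a factor of early mesoderm and endoderm, had 39.3, 39.1 and 34.9 TPM at stage 19, against 51.9, 161 and 108 TPM at stage 14 (log2 change -1.55 ± 0.46, adjusted p = 0.0154). Its stage 14 embryos differed widely, and it was not called by the DESeq2 Wald test (adjusted p = 0.0822), without stage 14 replicate 2 (0.104, log2 change -1.19) or without stage 19 replicate 3 (0.0561, log2 change -1.51). Of the 23 genes of this list 5 fell, against a background of 11.0% lower, and NODAL and LEFTY2 rose, against 6.73% higher. The number falling was 3 without stage 14 replicate 2 or stage 19 replicate 2 and 2 without stage 19 replicate 3.

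H1FOO, the linker histone of the oocyte, had 20.9, 18.3 and 24.6 TPM at stage 19, against 40.0, 43.8 and 39.4 TPM at stage 14, 0.499 of that level in scaled counts (SE 0.18 on the log2 scale, adjusted p = 0.000144). DAZL, a germ cell RNA-binding protein, had 1.85, 2.12 and 2.65 TPM at stage 19, against 4.07, 5.00 and 3.14 TPM at stage 14 (log2 change -0.93 ± 0.21, adjusted p = 0.00177). ELAVL2, an RNA-binding protein of oocytes and of neurons, fell by 0.94 ± 0.15 on the log2 scale and ZP1, an egg coat protein, by 0.67 ± 0.17. None of the 4 overlapped between the stages. The 7 falling oocyte genes of 34, against a background of 11.0%, were 4 without stage 19 replicate 2.

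Of 70 cell cycle genes 1 rose and 11 fell with TMM scaling, but DESeq2 size factors gave 4 and 5 and library size alone 1 and 3, and the number falling was 6 without stage 14 replicate 3, 5 without stage 19 replicate 1 and 4 without stage 19 replicate 2. The number rising was 2 without any 1 of the stage 14 embryos or without stage 19 replicate 1. Over all genes tested 972 rose and 1595 fell with TMM scaling. DESeq2 size factors gave 1437 and 928 of all genes, and library size alone 954 and 801. CDT1, which licenses origins of replication, fell under every alternative, with 244, 268 and 284 TPM at stage 19, against 402, 488 and 412 TPM at stage 14 (log2 change -0.77 ± 0.10, adjusted p = 2.38e-06). GTSE1, a microtubule protein of G2 and mitosis, rose under every alternative, with 18.5, 17.9 and 14.2 TPM at stage 19, against 4.64, 10.2 and 7.61 TPM at stage 14 (log2 change 1.09 ± 0.25, adjusted p = 0.00200). BUB1, a kinase of the mitotic checkpoint, fell by 0.44 ± 0.12 on the log2 scale, a call lost with library size alone (adjusted p = 0.0618) and with only stages 14 and 19 fitted (0.0556).

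Of 44 immediate early and stress response genes 4 rose and 3 fell, against 6.73% higher and 11.0% lower over all genes tested. EGR4, with a log2 change of -3.51, was one of those that fell. HSPA5, the chaperone of the endoplasmic reticulum, had 200, 187 and 178 TPM at stage 19, against 99.7, 135 and 93.3 TPM at stage 14 (log2 change 0.74 ± 0.15, adjusted p = 0.000915). BAG3, a co-chaperone that protects muscle proteins, had 9.62, 12.4 and 11.9 TPM at stage 19, against 4.68, 2.62 and 2.16 TPM at stage 14 (log2 change 1.78 ± 0.37, adjusted p = 0.000784). Both were higher in every stage 19 embryo under every alternative. For leukocytes, cells the neurula body axis should scarcely hold, 1 of 29 list genes rose and 2 fell, against the same 6.73% and 11.0%. The summed level of the list was 88.1 to 109 TPM at stage 19 and 76.5 to 94.8 TPM at stage 14. RAC2 rose (log2 change 2.13 ± 0.62, adjusted p = 0.0155). PTPRC fell, with 5.35, 6.62 and 6.30 TPM at stage 19, against 9.72, 8.71 and 9.43 TPM at stage 14 (log2 change -0.67 ± 0.17, adjusted p = 0.00515). Neither overlapped between the stages. RAC2 was not called without stage 14 replicate 2, and neither was called with only stages 14 and 19 fitted with a replicate block. The other falling call, that of MPEG1, a pore-forming protein of macrophages, came from a single embryo, with 0.615, 0.207 and 0.234 TPM at stage 19 and 0.0454, 0.116 and 6.44 TPM at stage 14. Its log2 change was -2.77 ± 0.97 (adjusted p = 0.0451), and without stage 14 replicate 3 it was 1.93 (adjusted p = 0.205). It was not called by the DESeq2 Wald test (adjusted p = 0.0975), with DESeq2 size factors (0.0578) or with library size alone (0.0770). Without any 1 of the stage 19 embryos it was not called either (adjusted p = 0.0503, 0.150 and 0.140 without replicates 1, 2 and 3). The list had 0 rising genes without stage 14 replicate 2, and 1 falling gene without stage 14 replicate 3 or any 1 of the stage 19 embryos.

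The stage 16 embryos lay between the ends for most called genes. Their mean was between those of stages 14 and 19 for 908 (93.4%) of the genes called higher and 1533 (96.1%) of those called lower. Choosing genes by the difference between stages 19 and 14 by itself favours an intermediate stage 16, so these shares are descriptions with no test. The median gene called at least 2-fold higher had covered 48.9% of its log2 change by stage 16, with quartiles of 33.3% and 62.1%, and the median gene called at least 2-fold lower had covered 42.0%, with quartiles of 27.7% and 56.8%. Stage 16 was beyond stage 19 for 4 of the 457 and 4 of the 260 genes, and beyond stage 14 for 12 and 5. SOX10 had covered 69.4% of its change and TNC 48.5%.

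**Figure D5:**
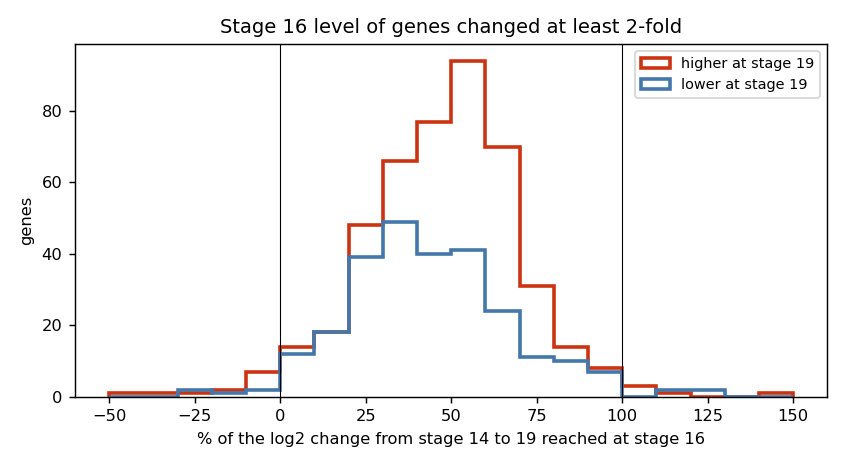
Share of the log2 change between stages 14 and 19 that had been reached at stage 16 (horizontal axis, %, with values beyond the axis in the end bins) for genes called at least 2-fold higher (red) or lower (blue) at stage 19, as the number of genes per bin (vertical axis). Most genes lie between 0 and 100%, with medians of 48.9% for higher and 42.0% for lower genes.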

How the data were processed

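Poly(A) RNA was sequenced from single embryos as paired reads, per the labels' protocols. The authors deposited 1 table of estimated counts, RSEM's expected counts as they stand, and 1 of TPM, which they scaled by gene length and by library. The submitters' processing notes list RSEM 1.1.6 and Bowtie 0.12.1 without saying what each did, and the reference and its annotation are not given in the sources used here. Reads of near-identical genes can be shared, so single members of gene families are uncertain.

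Estimated counts were rounded and tested in R 4.3.3 with edgeR 4.0.16. Of 15631 genes, 14437 passed filterByExpr by stage, and the rest held 0.00288% of the counts. Libraries were scaled by TMM, a quasi-likelihood model with a term per stage was fitted to all 49 libraries of 17 stages (common dispersion 0.0429), and stage 19 minus stage 14 was tested with Benjamini-Hochberg adjustment over all genes at 0.05. Standard errors come from the log2 change and its F statistic, and so they reflect the spread over all 49 libraries. Depth per library stands in the report and limits genes of a few counts. TPM were used for levels, as mean ± SD, and for genes detected at 1 TPM, compared by exact permutation. The stage 16 position used mean CPM, from scaled counts, with a pseudocount of 0.1. No pair of libraries of a stage was alike enough to be 1 library (chi-square per degree of freedom 12.9 to 83.3), and 0 columns belonged to other samples. Gene symbols are the deposited ones, 11354 of them RefSeq symbols. No sequences were used here.

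Members, the 31 gene lists and the 54 single genes were chosen with earlier results of these data known. Named genes were the 12 largest changes each way among the called ones that have a symbol, reach a mean of 10 TPM and do not overlap, up to 4 called members per list at 1 TPM or more, and the single genes, of which part are named. The result of 1 gene is not reported here. Alternatives were DESeq2 1.42.0 size factors, library size alone, its Wald test, no filter, fits of fewer stages, a replicate block, each library left out in turn, and other TPM minima. On data simulated for this comparison over 14437 genes, 73 of 100 changes of 2-fold and 95 of 100 of 4-fold were recovered, with 8 false calls. The changed genes were drawn from those above 1 CPM, so recovery below that level was not measured. The simulated counts were built with the TMM factors, so the dependence on scaling was not tested by them.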

Additional observations from a re-analysis of the deposited data

How the results depend on the processing

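The 972 genes called higher were 1601 by the DESeq2 Wald test, and 851 to 1437 under the other scalings and filters and the fits of fewer stages without a block. The 1595 called lower were 928 by DESeq2 size factors, 801 by library size alone and 561 with only stages 14 and 19 fitted; the fit of stages 14, 16 and 19 gave 1183 and 1067. With 1 library left out the counts were 701 to 799 higher and 1188 to 1332 lower. Called in every alternative were 327 and 266 genes, and 62 of the 90 called genes named, with DNAH7, EBF2, MYT1, PTPRC and RAC2 not counted. The detected genes differed by 314 at 0.5 TPM, 132 at 5 TPM and 212 to 349 without 1 library. The log2 change of SOX2, -0.03, was 0.10 by the DESeq2 Wald test and DESeq2 size factors, 0.06 by library size alone, 0.02 and 0.01 in the fits of 2 and 3 stages, and -0.30 to 0.14 without 1 library. Without 1 library MYF5 was at -0.06 to 0.17, ACTC1 at -0.02 to 0.33, ELAVL3 at -0.15 to 0.94, and MPEG1 at -3.39 to 1.93. The causes were not tested.

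The labels do not say whether a replicate number links embryos of different stages, and same-numbered embryos did not deviate together (r of -0.0039, 0.0395 and 0.0238). With the replicate block over all stages the counts were 952 and 1556. With only stages 14 and 19 and the block, an alternative chosen after seeing the data, they were 759 and 407. Low counts limit genes under about 1 TPM.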

Other observations

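Several abundant genes outside the lists also changed. Under a rule set after the values were seen (a mean of 30 TPM or more at the higher stage, at least 2-fold and no overlap), 20 such genes rose and 7 fell. FBN3, a fibrillin of embryonic microfibrils, had 54.5, 76.7 and 55.2 TPM at stage 19, against 23.2, 23.8 and 13.8 TPM at stage 14 (log2 change 1.56 ± 0.20, adjusted p = 2.22e-06). ZBTB16, a zinc finger repressor, had 51.4, 58.1 and 42.7 TPM at stage 19, against 7.00, 22.8 and 6.11 TPM at stage 14 (log2 change 2.04 ± 0.36, adjusted p = 9.64e-05). NR2F1, a nuclear receptor of the developing brain and crest, had 87.0, 73.2 and 61.4 TPM at stage 19, against 35.5, 27.3 and 22.8 TPM at stage 14 (log2 change 1.31 ± 0.34). Among the genes that fell, AKAP12, a scaffold of kinase signalling at the cell cortex, had 161, 263 and 224 TPM at stage 19, against 330, 816 and 461 TPM at stage 14 (log2 change -1.35 ± 0.25, adjusted p = 0.000174). SLC38A2, an amino acid transporter, had 52.4, 38.6 and 33.9 TPM at stage 19, against 67.0, 94.2 and 126 TPM at stage 14 (log2 change -1.26 ± 0.21, adjusted p = 5.10e-05).

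PRDM13, CRMP1 and NR2E1, single genes at lower levels and also named after their values were seen, rose. PRDM13, a repressor of the dorsal neural tube, had 3.90, 6.06 and 5.38 TPM at stage 19, against 0.886, 0.449 and 0.679 TPM at stage 14 (log2 change 2.89 ± 0.57, adjusted p = 0.000435). CRMP1, a protein of growing axons, had 2.90, 4.51 and 4.22 TPM at stage 19, against 0.257, 0.714 and 0.692 TPM at stage 14 (log2 change 2.73 ± 0.53, adjusted p = 0.000623). NR2E1, a nuclear receptor of neural stem cells, had 5.09, 4.62 and 2.68 TPM at stage 19, against 0.721, 0.924 and 1.08 TPM at stage 14 (log2 change 2.12 ± 0.59, adjusted p = 0.00994). The 3 calls held under every alternative run. Other genes of neurons fell, also named after their values were seen, among them the synaptic proteins RIMS2 (log2 change -1.68 ± 0.31, adjusted p = 0.000200) and SHANK1 (log2 change -1.60 ± 0.36, adjusted p = 0.00159). RIMS2 was not called with only stages 14 and 19 fitted (adjusted p = 0.0663).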
